A study of Rattus norvegicus with 8 samples.

Results

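The renin-angiotensin genes described here are Agt, Ace, Agtr1a, Agtr1b, Mme and Enpep, chosen by name, with earlier results of these data known. Of these 6 genes, 5 were measured by a probe set with a single gene symbol, among 18166 such genes in all, and Enpep was not analysed here. The samples were kidney tissue of 10-week-old male Wistar rats, 4 arrays of cortex and 4 of medulla, all given ethylene glycol every day and vitamin D on alternate days for 1 week. Ethylene glycol is converted to oxalate, and with vitamin D it is used to raise calcium oxalate crystals in rat kidney. Since all samples share this treatment, treated and untreated kidney were not compared. The values are probe set intensities, given below as log2, and replicate numbers follow the order of deposit within a region and pair no arrays. No label ties an array to a particular animal, so the spread between arrays, on which every p-value rests, may be biological or technical. Arrays of the same number did resemble each other in some genes: Havcr1, the kidney injury molecule, read 4.59, 5.15, 7.54 and 11.27 on cortex replicates 1 to 4 and 4.54, 4.80, 8.95 and 11.32 on those of medulla. Whether they come from the same animals is not stated, so a low value on both replicate 4 arrays may be 1 animal seen in both regions.

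Angiotensinogen, the product of Agt, is cut by renin to angiotensin I, which angiotensin-converting enzyme (Ace) shortens to angiotensin II. Angiotensin II acts mainly on the type 1 receptor, which rodents encode with a pair of genes, Agtr1a and Agtr1b, and it constricts vessels and raises sodium reabsorption. Aminopeptidase A (Enpep) and neprilysin (Mme) are membrane peptidases that break angiotensins down. In kidney, the brush border of the proximal tubule carries both of these peptidases and Ace, and proximal tubule cells make angiotensinogen.

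RefSeq's promoter table for assembly GRCr8 held entries for 5 of the 6 genes. Of these, 4 are shown, the 120 bases before the annotated start of each gene, 5′ to 3′ on the gene's strand, because the receptor paralogs and the 2 peptidases differed in how they varied between arrays. Capitals mark matches, on either strand, to TATAAA (the TATA box), GGGCGG (a GC box) and AGGTCA (a half-site read by nuclear receptors, the vitamin D receptor among them).
Agtr1a, chr17:34435433-34435552, minus strand: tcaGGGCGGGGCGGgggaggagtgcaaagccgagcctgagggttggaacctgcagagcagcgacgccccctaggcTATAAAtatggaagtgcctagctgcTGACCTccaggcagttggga
Agtr1b, chr2:104849263-104849382, minus strand: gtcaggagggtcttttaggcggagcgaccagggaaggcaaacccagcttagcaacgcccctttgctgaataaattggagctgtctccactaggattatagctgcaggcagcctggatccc
Ace, chr10:91410009-91410128, plus strand: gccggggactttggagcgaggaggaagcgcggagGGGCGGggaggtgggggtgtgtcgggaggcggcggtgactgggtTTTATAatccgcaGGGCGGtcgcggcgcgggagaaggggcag
Mme, chr2:149872377-149872496, plus strand: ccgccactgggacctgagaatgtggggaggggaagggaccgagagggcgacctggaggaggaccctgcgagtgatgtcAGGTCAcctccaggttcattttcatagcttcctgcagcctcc

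Over the 250 bases before the start, TATAAA or its complement TTTATA was present in 12.9% of 33469 rat promoters, GGGCGG or CCGCCC in 30.5% and AGGTCA or TGACCT in 14.1%. Agtr1a held TATAAA 45 bases before its start, 2 GGGCGG matches that share a base, and AGGTCA on the opposite strand 20 bases before the start. Agtr1b held none of the 3 motifs in this window. Ace held TATAAA on the opposite strand and 4 GGGCGG matches, of which 2 lie in the stretch shown. Mme held AGGTCA on its own strand 42 bases before the start and 2 GGGCGG matches further out. These are matches of letters and no measure of binding, and whether they bear on the array values was not tested.

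Mme, neprilysin, was bright on all 8 arrays, its mean signal at the 99.4th percentile of all genes, and it was lower on replicate 4 of each region (probe set 17738845). Its cortex values, replicates 1 to 4, were 10.08, 10.15, 10.02 and 9.28, and its medulla values 10.04, 10.04, 10.35 and 9.58. The replicate 4 arrays lay below every other array in both regions, while the remaining cortex values spanned 0.13 log2 units. Cortex replicate 4 was 0.81 log2 units below the mean of the other 3 cortex arrays (-0.81), and medulla replicate 4 was 0.57 below (-0.57). The range was 0.87 in cortex and 0.77 in medulla, or 0.13 without cortex replicate 4 and 0.31 without medulla replicate 4.

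Agt, the angiotensin precursor, was also lowest on replicate 4 of each region (probe set 17734430, 74.7th percentile). Its cortex values, replicates 1 to 4, were 6.68, 7.03, 6.99 and 6.25, and its medulla values 6.83, 7.00, 6.32 and 6.15. Medulla replicate 3 was low as well, close to replicate 4, whereas cortex replicate 3 was among the high arrays. Its ranges of 0.77 in cortex and 0.85 in medulla equal 1.71-fold and 1.81-fold, and without cortex replicate 4 the cortex range was 0.34.

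Ace, which makes angiotensin II and also degrades bradykinin, varied in another order (probe set 17651988, 92.4th percentile). Its cortex values, replicates 1 to 4, were 7.72, 7.75, 8.38 and 7.79, and its medulla values 7.60, 7.44, 8.39 and 8.28. The high arrays were replicate 3 in cortex and replicates 3 and 4 in medulla, and cortex replicate 4 lay with the lower cortex arrays. Its ranges were 0.66 in cortex and 0.94 in medulla. Without cortex replicate 3 the cortex range was 0.074.

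Agtr1a, the main type 1 angiotensin receptor gene of rodent kidney, had the widest cortex range of the 5 genes (probe set 17719191, 80.0th percentile). Its cortex values, replicates 1 to 4, were 7.51, 7.01, 6.71 and 6.38, and its medulla values 7.15, 6.94, 7.33 and 6.42. Replicate 4 was lowest in both regions, and the highest arrays were cortex replicate 1 and medulla replicate 3. The cortex range of 1.13 (2.19-fold) ranked 479 of 18166 genes, and the medulla range was 0.90 (1.87-fold). Without cortex replicate 1 the cortex range was 0.63, without cortex replicate 4 it was 0.80, both under 2-fold, and without medulla replicate 4 the medulla range was 0.39.

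Agtr1b, the second type 1 receptor gene, lay close to the array medians of 5.09 to 5.12 and varied little (probe set 17746540, 36.7th percentile). Its cortex values, replicates 1 to 4, were 5.23, 5.04, 5.01 and 5.01, and its medulla values 5.10, 5.06, 4.89 and 4.98. Its ranges were 0.22 in cortex, or 0.037 without cortex replicate 1, and 0.21 in medulla. Detection calls were not used, and whether this signal lies above background was not tested. The paralogs are alike in sequence, and whether transcripts of Agtr1a bind probes of Agtr1b was not tested.

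**Figure D1:**
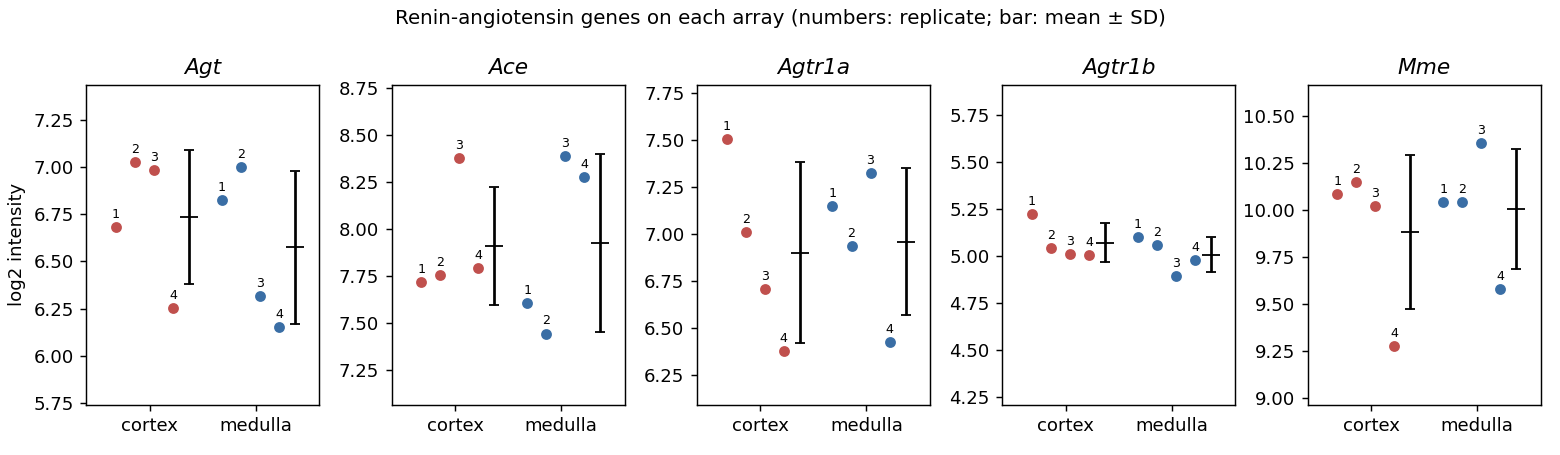
Log2 intensity (vertical axes, all spanning the same number of log2 units) of the 5 measured genes on each cortex array (red) and medulla array (blue), numbered by replicate, with the mean and SD of each region in black. Mme, Agt and Agtr1a sit lowest on replicate 4 of both regions, Ace sits highest on replicate 3 of both, and Agtr1b stays between 4.89 and 5.23.

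The study's design text selects genes that differ at least 2-fold within cortex and within medulla. Agtr1a passed this threshold in cortex, as 1 of 654 genes (3.60%). None of the 5 genes passed in medulla, where 3.80% of all genes did, or in both regions, where 2.21% did. At a lower threshold of 1.5-fold in both regions, 4 of the 5 passed, Agt, Ace, Agtr1a and Mme, against 8.12% of all genes and 11.6% of the 12716 genes above the 30th percentile of mean signal. With both replicate 4 arrays left out only Ace passed, against 1.60% of all genes. The median range of the 5 genes was 0.77 in cortex and 0.85 in medulla, beside 0.21 and 0.25 over all genes. These all-gene medians include dim genes, whereas Agt, Ace, Agtr1a and Mme lay at the 74.7th percentile of mean signal or above. The part of signal in this gap was not tested. No test was made of these ranges, since the labels do not say which arrays the authors set against each other.

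**Figure D2:**
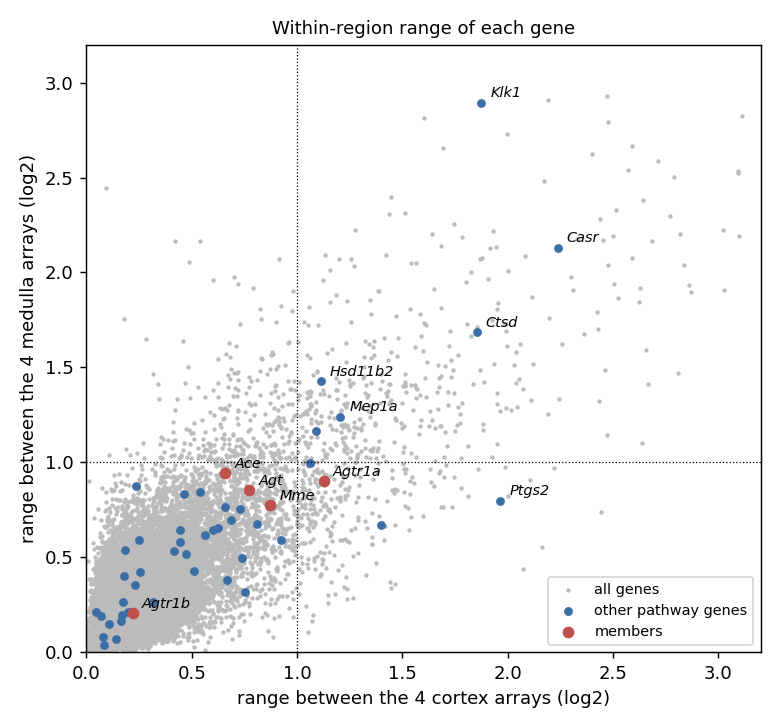
Difference between the highest and lowest of the 4 cortex arrays (horizontal axis, log2) and of the 4 medulla arrays (vertical axis, log2) for all 18166 genes in grey, except 16 that lie beyond the axes, with pathway genes in blue and the 5 measured renin-angiotensin genes in red. Dotted lines mark 2-fold. Agtr1a lies right of the line in cortex only, and Casr, Klk1 and Ctsd lie past both lines.

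Medulla against cortex is the comparison the labels allow, and none of the 5 genes differed between the regions beyond the spread of the arrays. The medulla minus cortex difference was 0.12 ± 0.23 (SE) for Mme, from 9.88 ± 0.41 (SD, n = 4) in cortex to 10.004 ± 0.32 (SD, n = 4) in medulla. For Agt it was -0.16 ± 0.24, from 6.74 ± 0.36 to 6.58 ± 0.41. Ace differed by 0.02 ± 0.25, from 7.91 ± 0.31 to 7.93 ± 0.47. The receptors differed by 0.06 ± 0.28 for Agtr1a, from 6.90 ± 0.48 to 6.96 ± 0.39, and by -0.06 ± 0.07 for Agtr1b, from 5.07 ± 0.10 to 5.01 ± 0.09. The 95% intervals from limma ran from -0.42 to 0.66 for Mme, -0.73 to 0.40 for Agt, -0.57 to 0.61 for Ace, -0.59 to 0.70 for Agtr1a and -0.22 to 0.09 for Agtr1b. Each of them lies inside a 2-fold difference in either direction, and differences within these intervals were not detectable with these arrays.

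By limma, with Benjamini-Hochberg adjustment over all 18166 genes, the adjusted p was 0.959 for Mme, 0.948 for Agt, 0.993 for Ace, 0.982 for Agtr1a and 0.914 for Agtr1b. At an adjusted p under 0.05 with a 2-fold difference, 0 genes were called (0%), while 971 (5.35%) reached an unadjusted p under 0.05, none of them among the 5. The two-sided exact permutation p was 0.657 for Mme, 0.629 for Agt, 0.971 for Ace, 0.886 for Agtr1a and 0.429 for Agtr1b, and 4 arrays against 4 cannot give less than 0.0286. The regions overlapped in all 5 genes, and 2.83% of all genes did not overlap. With single arrays left out, the difference changed sign for Ace (-0.13 to 0.18), Agtr1a (-0.12 to 0.26) and Mme (-0.081 to 0.26). It ran from -0.32 to -0.02 for Agt and from -0.095 to -0.013 for Agtr1b. Slc14a2, the urea transporter of the inner medulla, did not overlap, at 4.80 to 5.88 in cortex and 6.15 to 7.42 in medulla. Its adjusted p by limma was 0.875. Slc14a2 had been named as a gene known to vary, and was the 1 of 7 collecting duct markers without overlap. Of 6 thick ascending limb markers, 0 parted the regions. Slc14a2 therefore does not by itself test the region labels. By mean, 5 of the 7 collecting duct markers were higher in medulla (median difference 0.41), as were 5 of the 6 thick ascending limb markers (0.26). Of 7 markers of the straight proximal tubule, 5 had a lower mean in medulla (-0.35). Among them 1 did not overlap, Slc5a8, at 8.03 to 8.35 in cortex and 7.66 to 7.94 in medulla. Proximal tubule markers were measured in both regions, and 9 of 10 had a lower mean in medulla, with a median difference of -0.41. The endocytic receptor gene Lrp2 measured 10.38 to 10.75 there and 10.68 to 10.82 in cortex, while Slc5a12, a lactate transporter, ran from 4.98 to 6.88 in medulla and from 5.03 to 7.90 in cortex. Of 5 measured markers of podocytes, cells of the glomerulus, 5 had a lower mean in medulla, with a median difference of -0.50, but 0 parted the regions. Podxl ran from 8.19 to 9.09 in medulla and from 8.61 to 9.18 in cortex. How much cortex the medulla arrays hold was not tested.

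**Figure D3:**
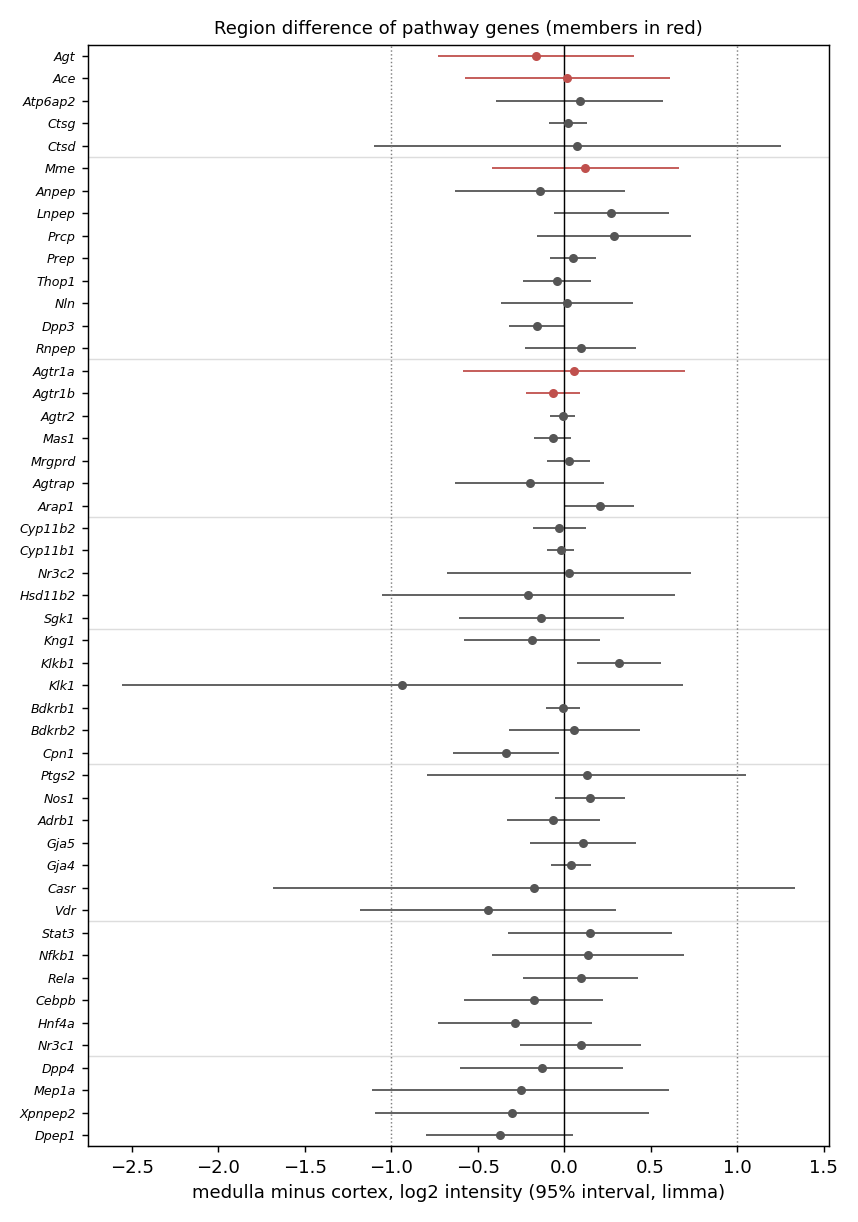
Medulla minus cortex difference in log2 intensity (horizontal axis), with its 95% limma interval, for the 49 measured pathway genes, the 5 renin-angiotensin genes in red, grey lines between the lists and dotted lines at a 2-fold difference. All 5 intervals in red include 0, and 0 genes were called.

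A wider pathway list of 57 genes, 49 of them measured and 44 besides the 5 above, gave no call between the regions either. It covers angiotensin formation, angiotensin peptidases, receptors, the aldosterone and kinin branches, renin release, regulators of Agt and brush border peptidases. An unadjusted p under 0.05 was reached by 3 of the 49 (6.12%, beside 5.35% of all genes), namely Klkb1, Cpn1 and Arap1, each with an adjusted p of 0.875 by limma. Klkb1, the plasma prekallikrein gene, was the 1 gene of the list without overlap (2.04%, beside 2.83% of all genes), at 4.708 to 4.965 in cortex and 4.971 to 5.392 in medulla, so that the regions only just parted. Both shares are near those of all genes. The Klkb1 difference was 0.32 ± 0.10 (SE), and the exact permutation p of 0.0286 is the smallest the arrays allow. Klkb1 was dim, at the 36.4th percentile of mean signal, with cortex values below the array medians of 5.09 to 5.12. Whether its signal lies above background was not tested. Cpn1, the kinin-cutting carboxypeptidase N, differed by -0.33 ± 0.13, and Arap1 by 0.21 ± 0.09.

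Of the 7 brush border peptidases measured, 6 were lowest on replicate 4 in both regions, Mme, Anpep, Dpp4, Mep1a, Xpnpep2 and Dpep1, and Ace was the exception. Over all genes 16.0% were lowest on replicate 4 in both regions and 17.0% were highest there. Among the 5 renin-angiotensin genes this held for Mme, Agt and Agtr1a at the low end and for 0 at the high end. Low values on replicate 4 were not particular to the peptidases. Of 7 collecting duct markers, 5 were lowest there in both regions and 0 highest. Of 6 markers of the thick ascending limb, 4 were lowest there in both regions and 1 highest. In a bulk tissue, fewer cells of a type and less RNA per cell cannot be told apart.

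Anpep, aminopeptidase N, which shortens angiotensin III, had cortex values of 11.03, 11.25, 11.07 and 10.45 and medulla values of 11.04, 11.07, 10.75 and 10.39. Dpp4, dipeptidyl peptidase 4, had cortex values of 10.03, 10.13, 9.94 and 9.47 and medulla values of 9.90, 10.02, 9.89 and 9.25. Mep1a, the meprin alpha subunit, had cortex values of 9.51, 9.45, 9.46 and 8.30 and medulla values of 9.35, 9.35, 8.91 and 8.11. Mep1a and Xpnpep2, the membrane aminopeptidase P that cuts bradykinin, passed 2-fold in both regions, and both were over 1 log2 unit below the mean of the other arrays on replicate 4. The difference of replicate 4 from the mean of the other 3 arrays was -1.17 in cortex and -1.09 in medulla for Mep1a, and -1.06 and -1.01 for Xpnpep2. The median over the 7 peptidases was -0.67 in cortex and -0.62 in medulla, beside -0.0011 and -0.0048 over all genes. Over 7 collecting duct markers it was -0.83 in cortex and -1.07 in medulla. Over 6 thick ascending limb markers it was -1.1 in cortex and -0.99 in medulla. The peptidase list includes Mme and Ace, and was drawn up with results of these data known.

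Markers of the proximal tubule did not share a single order. Of 10 markers, 3 were lowest on replicate 4 in both regions and 4 were highest there. Aqp1, the water channel, was among the lowest, at 9.66 on cortex replicate 4 against 10.14 to 10.46, and 9.74 on medulla replicate 4 against 9.75 to 10.76. Slc5a2, the glucose transporter of the early proximal tubule, was highest on these arrays, at 8.06 against 5.62 to 6.47 in cortex and 6.85 against 5.52 to 6.16 in medulla. Of 7 markers of the straight part, 3 were lowest on replicate 4 in both regions and 0 highest. Slc7a13, an amino acid transporter, measured 9.65 on cortex replicate 4 against 11.37 to 11.69, and 10.23 on medulla replicate 4 against 11.40 to 11.52. Slc13a3, a dicarboxylate transporter, was highest on cortex replicate 4, at 10.48 against 9.38 to 10.30, as were Slc5a8 and Napsa. The summed intensity of the 10 proximal tubule markers ran from 7785 to 9793 in cortex and from 6217 to 8917 in medulla, with replicate 4 at 8821 in cortex and lowest, at 6217, in medulla. That of the 7 straight-part markers ran from 4483 to 7150 in cortex and from 3835 to 6481 in medulla, lowest on replicate 4 in both. This order rests on the bright Slc7a13. Alone it read 3308, 3097, 2639 and 803 units on cortex replicates 1 to 4, and 2823, 2704, 2932 and 1198 on those of medulla. The sum therefore does not show that the straight-part markers as a set were low on replicate 4. Injury genes were high on the replicate 4 arrays. Of 13 tubular injury genes, 9 were highest on replicate 4 in both regions, and their summed intensity ran from 1942 to 11050 in cortex and from 2067 to 13430 in medulla, with the top values on replicate 4. The sum was not high on replicate 4 alone. On medulla replicate 3 it was 7042, beside 2657 and 2067 on medulla replicates 1 and 2, while cortex replicate 3 stood at 2552. The part of injury or of tubule segment in the values of Mme and Agt was not tested.

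**Figure D4:**
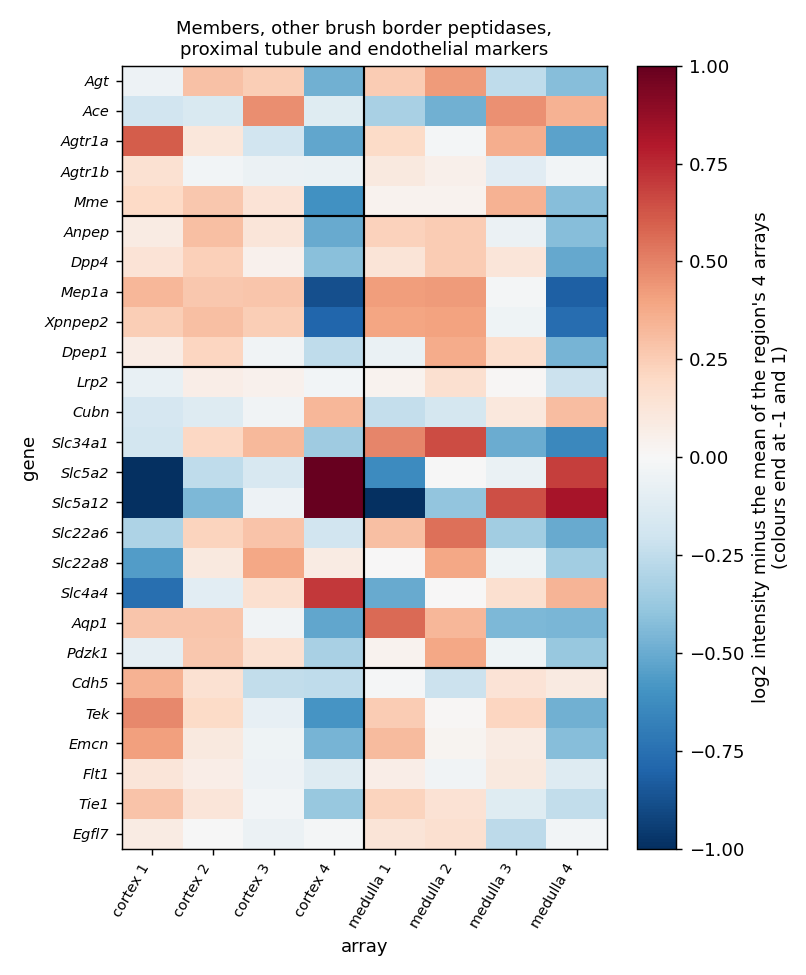
Log2 intensity minus the mean of the 4 arrays of the same region (colour, ending at -1 and 1) for the renin-angiotensin genes, the other brush border peptidases, proximal tubule markers and endothelial markers (blocks from top to bottom), with arrays in columns. Mme and the 5 other peptidases are blue on replicate 4 of both regions, Ace is red on medulla replicate 4, and the proximal tubule block holds both colours.

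The gene patterns nearest to Agtr1a were those of Tek, Clic2 and Abcg1. Nearness is the root mean square distance between the 8 log2 values after the mean of each region is taken off. It was 0.094 for Tek, 0.099 for Clic2 and 0.11 for Abcg1, beside a median of 0.39 over all genes. Agtr1a's own values had a root mean square of 0.38, which is the distance to a gene that does not vary. The median thus mostly reflects the spread of Agtr1a. The 3 genes were picked as the nearest of all, so the median is no test of their likeness. Tek, the endothelial receptor for angiopoietins, had cortex values of 7.32, 7.03, 6.76 and 6.25 and medulla values of 7.42, 7.17, 7.38 and 6.69. The order of the arrays in cortex was the same as for Agtr1a. Of 6 measured endothelial markers, 4 were lowest on replicate 4 in both regions, and their summed intensity ran from 719 to 1166 in cortex and from 901 to 1232 in medulla. The cadherin gene Cdh5 was not among the 4, at 7.69 on medulla replicate 4 against 7.38 to 7.73. Smooth muscle, mesangium and renin cell markers summed to between 913 and 953 in cortex and between 999.5 and 1243 in medulla, but the 8 measured did not move together, with 2 lowest and 2 highest on replicate 4 in both regions. Rgs5, a pericyte gene, was lowest there, at 6.10 against 7.01 to 7.38 in cortex and 6.90 against 7.35 to 7.69 in medulla. Tagln and Des, of smooth muscle, were highest there. Which cells gave the Agtr1a signal was not tested.

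For Agt, Ace and Mme the nearest genes were looked up after their values were seen. Nearest to Agt were Grhpr at 0.062, Sardh at 0.071 and Shisa3 at 0.072, beside a median of 0.34. Agt's own root mean square was 0.33, so this median too mostly reflects its spread. Grhpr, the enzyme that reduces glyoxylate and so diverts it from oxalate, had cortex values of 8.65, 9.01, 8.89 and 8.31 and medulla values of 8.56, 8.78, 8.01 and 7.74. Like Agt it was low on medulla replicates 3 and 4 and on cortex replicate 4. Nearest to Mme were Nudt12 at 0.054, Ptgr2 at 0.058 and Foxp2 at 0.067, and nearest to Ace was Fam110c at 0.093, with the next gene, Serpinb8, at 0.18. The points are 8 arrays of 2 regions that share their treatment, and these distances are a description.

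Among the other genes of angiotensin formation, Ctsd, the lysosomal protease cathepsin D, had the widest ranges. It had cortex values of 9.33, 9.69, 9.98 and 11.18 and medulla values of 9.63, 9.70, 9.85 and 11.31, highest on replicate 4 in both, where Agt was lowest. Atp6ap2, the prorenin receptor and a proton pump subunit, was lowest there, at 8.11 against 8.58 to 8.65 in cortex and 8.00 against 8.63 to 8.85 in medulla. Of the receptors, Agtr2 stayed between 4.23 and 4.31 and Mas1, the receptor for angiotensin 1-7, between 4.57 and 4.77, both below the array medians. Prcp, a carboxypeptidase that cuts angiotensin II, measured 5.92 to 6.15 in cortex and 6.02, 5.89, 6.77 and 6.50 in medulla. In medulla, as for Ace, replicates 3 and 4 were the high arrays.

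Of the 49 pathway genes, 10 passed 2-fold in cortex, 6 in medulla and 6 in both regions, beside 3.60%, 3.80% and 2.21% of all genes. Their median ranges were 0.54 in cortex and 0.59 in medulla, beside 0.21 and 0.25 over all genes, again with no filter by signal. In all, 21 were lowest on replicate 4 in both regions and 10 were highest there, beside 16.0% and 17.0% of all genes. The pathway list was drawn up with results of these data known. Those past 2-fold in both were Ctsd, Mep1a, Xpnpep2, Hsd11b2, Klk1 and Casr. On the aldosterone side, Nr3c2, the mineralocorticoid receptor, had cortex values of 7.12, 7.15, 7.00 and 6.09 and medulla values of 7.21, 7.12, 6.92 and 6.22. Hsd11b2, the enzyme that shields this receptor from glucocorticoids, had cortex values of 7.67, 8.29, 8.41 and 7.29 and medulla values of 8.04, 8.34, 7.56 and 6.91. Both were lowest on replicate 4, as Mme, Agt and Agtr1a were. Cyp11b2, aldosterone synthase of the adrenal, stayed between 4.57 and 4.80.

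Klk1, tissue kallikrein, which releases kinins that Ace and Mme degrade, had cortex values of 8.41, 9.84, 9.95 and 8.08 and medulla values of 7.83, 9.88, 7.86 and 6.98. Its range was 1.87 in cortex and 2.89 in medulla, with replicate 2 and cortex replicate 3 high. Bdkrb2, the bradykinin receptor, was highest on replicate 4, at 6.00 against 5.33 to 5.39 in cortex and 5.79 against 5.41 to 5.56 in medulla.

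Among genes that govern renin release, Casr, the calcium sensing receptor, measured 6.48 on replicate 4 of each region, against 8.53 to 8.72 in cortex and 8.15 to 8.61 in medulla. Ptgs2, the cyclooxygenase of the macula densa, had cortex values of 6.87, 6.70, 7.79 and 5.83 and medulla values of 6.93, 6.65, 7.45 and 6.68, highest on replicate 3 in both regions, as Ace was. Vdr, the vitamin D receptor, had cortex values of 7.45, 8.12, 8.86 and 8.69 and medulla values of 7.37, 7.93, 8.03 and 8.04, lowest on replicate 1. Cyp24a1, the vitamin D target that degrades the hormone, measured 10.18 and 10.65 on cortex replicates 3 and 4 against 5.42 and 6.21 on the others, and 10.08 and 9.97 on medulla replicates 3 and 4 against 5.31 and 5.69. Ace was also high, at 8.28 to 8.39, on 3 of these 4 arrays and stood at 7.79 on cortex replicate 4, beside 7.44 to 7.75 on the 4 arrays where Cyp24a1 was low. The relation was not tested.

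Of 6 measured transcription factors known to act on Agt, 4 were highest on replicate 4 in both regions and 2 were lowest there. Nfkb1 measured 7.74 on cortex replicate 4 against 6.82 to 6.84, and 7.61 on medulla replicate 4 against 7.02 to 7.11. Stat3 measured 8.90 against 8.21 to 8.38 in cortex and 9.05 against 8.35 to 8.56 in medulla. These factors were highest where Agt was lowest. Hnf4a, a hepatocyte and proximal tubule factor, had cortex values of 9.04, 9.29, 9.47 and 8.85 and medulla values of 9.16, 9.14, 8.71 and 8.51, lowest on replicate 4 like Agt. Liver is the main source of circulating angiotensinogen, and of 6 hepatocyte markers 0 were lowest on replicate 4 in both regions. Albumin (Alb) stayed between 4.51 and 4.59, near the lower quartiles of the arrays, which were 4.44 to 4.48. Transthyretin (Ttr) stayed between 4.88 and 5.02, a little below the array medians of 5.09 to 5.12. Cyp2e1, which kidney also expresses, was the bright one, at 8.42 to 8.82 in cortex and at 7.54 on medulla replicate 4 against 8.28 to 8.61. The summed intensity of the 6 ran from 467 to 578 in cortex, 487 on replicate 4, and from 308 to 513 in medulla, lowest on replicate 4. This sum mostly follows Cyp2e1, which alone read 341 to 453 units in cortex. In medulla Cyp2e1 read 186 on replicate 4 against 311.7 to 391.5. The part of these markers in the values of Agt was not tested.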

How the data were processed

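The deposited table gives, for each of the 8 arrays, linear probe set intensity already normalized between arrays by the authors (RMA in Expression Console, as the submitters' processing notes name them). Their versions and any genome build were not given in the sources used here. All values were above 0 and were logged with no pseudocount. Array medians were 34.1 to 34.7 units. Precision is limited by having 4 arrays a region. Of 29870 probe sets, 18511 carried a single symbol in the platform annotation and were kept, and for the 291 genes with several the brightest was used, which gave 18166 genes.

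The medulla minus cortex difference was fitted in R 4.3.3 by limma 3.58.1, with Benjamini-Hochberg adjustment over all genes, tested on simulated data first, and single genes by an exact permutation test. A range is the highest minus the lowest log2 value of a region's 4 arrays. Motifs were searched in RefSeq promoters of GRCr8. Figures used matplotlib 3.10.9. Named genes were the members, up to 4 genes per pathway list by the smaller of the regional ranges and up to 2 by unadjusted p, the 3 genes nearest to a member with a 2-fold range, and Slc14a2, Havcr1 and Cyp24a1. Other genes named were chosen after their values were seen. Members and lists were chosen with earlier results of these data known. Alternatives were quantile normalization, median centring, averaging the probe sets of a gene, a filter at the 30th percentile of mean signal, single arrays left out, a trended robust prior, array weights, the adjusted p alone, and ranges of 1.5-fold and 3-fold. Leaving out both replicate 4 arrays was added after the data were seen.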

Additional observations from a re-analysis of the deposited data

Results flagged for a closer look

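In 15 of 86 groups of 4 arrays, over 43 named genes, a single array lay far from the other 3 for the size of the group's range (Dixon's ratio). Chance flags about 1 in 20 such groups, and over all genes 7.16% of 36332 groups met this rule, 48.4% of them through a replicate 4 array. The named genes were partly picked for wide ranges and from lists drawn up with these data known, so their 17.4% is no test against that rate. Of the 15 arrays, 10 were a replicate 4. Among the renin-angiotensin genes these were Mme at 9.28 on cortex replicate 4 (the others 10.02 to 10.15), Ace at 8.38 on cortex replicate 3 (7.72 to 7.79) and Agtr1b at 5.23 on cortex replicate 1 (5.01 to 5.04).

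On cortex replicate 4 they were also Atp6ap2 at 8.11 (8.58 to 8.65), Nr3c2 at 6.09 (7.00 to 7.15), Bdkrb2 at 6.00 (5.33 to 5.39), Casr at 6.48 (8.53 to 8.72), Nfkb1 at 7.74 (6.82 to 6.84), Mep1a at 8.30 (9.45 to 9.51) and Xpnpep2 at 8.06 (9.09 to 9.14). On medulla replicate 4 they were Ctsd at 11.31 (9.63 to 9.85) and Nfkb1 at 7.61 (7.02 to 7.11). The remaining 3 were Agtrap, a type 1 receptor-associated protein, at 8.02 on cortex replicate 1 (8.54 to 8.62), Vdr at 7.37 on medulla replicate 1 (7.93 to 8.03) and Cyp11b2 at 4.78 on medulla replicate 2 (4.57 to 4.60).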

How the results depend on the processing

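The count of genes called between the regions was 0 under every alternative run. The differences of the 5 renin-angiotensin genes turned sign in 12 of 80 recomputations and never passed the test, with an adjusted p by limma of 0.738 to 1. With single arrays left out, the difference ran from -0.13 to 0.18 for Ace, -0.12 to 0.26 for Agtr1a and -0.081 to 0.26 for Mme, and kept its sign for Agt (-0.32 to -0.02) and Agtr1b (-0.095 to -0.013). Ace also turned to -0.14 without both replicate 4 arrays and to -0.16 with array weights.

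The counts of genes past 2-fold, 654 in cortex, 691 in medulla and 402 in both regions, ran from 145 to 613, 170 to 622 and 84 to 379 with single arrays left out. Without both replicate 4 arrays they were 145, 170 and 45. They were 2063, 2738 and 1475 at 1.5-fold and 186, 157 and 96 at 3-fold. With single arrays left out, the cortex range ran from 0.074 to 0.66 for Ace, 0.34 to 0.77 for Agt, 0.63 to 1.13 for Agtr1a, 0.037 to 0.22 for Agtr1b and 0.13 to 0.87 for Mme, and the medulla range from 0.39 to 0.90 for Agtr1a and 0.31 to 0.77 for Mme. Without both replicate 4 arrays the cortex range was 0.34 for Agt and 0.13 for Mme, and the medulla range 0.39 for Agtr1a and 0.31 for Mme. Scaling and filtering changed no range by more than the SD of its region. No paired analysis was possible because the labels number the 8 arrays in 1 run and tie no cortex array to a medulla array. If they share animals, the unpaired errors and the count of 0 would not apply to a paired comparison. Agtr1b lay near the array median, which limits what its small range can show.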
